A study of Mus musculus with 6 samples.

Results

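Oxidative phosphorylation is carried out in the inner mitochondrial membrane. Complexes I and II pass electrons from NADH and succinate to ubiquinone, complex III passes them on to cytochrome c and complex IV to oxygen, and ATP synthase uses the proton gradient built on the way to make ATP. Most of its subunits are encoded in the nucleus, and several exist as a common form and a form that is restricted to certain tissues. The developing lens holds an epithelium with mitochondria and fibre cells that later clear their organelles, mitochondria included. The genes described here are the rows of the deposited count table whose symbols start with Nduf, Uqcr or Atp5, with Cox followed by a digit from 4 to 8, or are Sdha, Sdhb, Sdhc or Sdhd. There were 88 such genes among 13024 in the table. They comprised 35 genes of complex I, 4 of complex II, 8 of complex III, 17 of complex IV, 14 of ATP synthase, and 10 assembly factors and related genes that share the name without being subunits.

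RNA was measured by poly(A) sequencing in 6 libraries from lenses of E14.5 mouse embryos on a mixed C57BL/6 and FVB background. Each library was a pool of 10 lenses from 5 embryos. The 3 libraries labelled CKO came from embryos with both Gata3 alleles floxed around exon 4 and with Pax6-Cre, a transgene in which a Pax6 ocular enhancer and the P0 promoter drive Cre in the head ectoderm that forms lens and cornea. The 3 control libraries carried no Cre and are labelled wild type, whereas the study's text describes floxed Gata3 alleles without Cre. An effect of Cre itself and one of Gata3 loss therefore cannot be told apart. In such bulk samples, fewer cells of a type and less RNA per cell cannot be told apart either.

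The targeted gene had more counts in the libraries labelled CKO when counted over its whole length. Gata3, which encodes a zinc finger transcription factor, was counted 202, 386 and 156 times in the controls, against 910, 1064 and 894 times where the label was CKO. One count per gene does not show exon 4, so it is no check of the deletion, and the groups are named by their labels throughout. The study itself reports loss of exon 4 from the RNA-Seq reads of its mutant lenses. It also reports strongly reduced Gata3 in E14.5 mutant lenses by qPCR with primers reaching into exon 4. Total counts ranged from 15157230 to 18811104 per library. Control replicate 2 stood apart from the other libraries. Crystallins, the main proteins of lens fibres, made up 16.5% of its counts against 5.47% to 9.31% elsewhere, and its TMM scaling factor was 0.869 against 0.998 to 1.05. Values below include this library unless stated otherwise.

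Promoters are shown first because factors such as NRF1 and GABP are known to act on many genes of this kind. RefSeq promoter sequences (GRCm38.p6, 250 bases before to 50 bases after each start) matched 73 of the 88 genes. The letters GCATGCGC, the core of the motif of nuclear respiratory factor NRF1, were found on either strand in 11 of the 73, or 15.1%, against 2.71% of all 32851 promoters of the same length. The letters CCGGAAG, bound by ETS factors such as GABP, were found in 17, or 23.3%, against 8.86% of all. AAGATGGCG, a motif of YY1, was found in 8, or 11%, against 1.40% of all. Any of these motifs was found in 30 of the 73, or 41.1%, against 12.1% of all, so most members held none. CG dinucleotides were also more frequent, with a median of 20 per promoter against 7. Matches on opposite strands can overlap, as can matches of CCGGAAG and AAGATGGCG. The 30-base windows below show 1 match that lies before the start for NRF1 in 5 of the gene groups and for ETS and GABP in complex III. Capitals mark that match, and each sequence runs 5′ to 3′ along the strand of its gene. In Ndufa11, Cox6a1, Atp5k and Ndufaf4 the NRF1 letters also occur on the gene's own strand, overlapping the match in capitals.
Ndufa11 (NRF1 letters on the opposite strand, chr17:56717691-56717720, plus strand): acctgcactgcGCGCATGCgcgcacgcctt
Sdhb (NRF1 letters on the gene's strand, chr4:140961206-140961235, plus strand): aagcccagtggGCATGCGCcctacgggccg
Uqcr11 (ETS and GABP letters on the gene's strand, chr10:80406869-80406898, minus strand): ttctctcctccCCGGAAGtagatgtcaatg
Cox6a1 (NRF1 letters on the opposite strand, chr5:115349102-115349131, minus strand): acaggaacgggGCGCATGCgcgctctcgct
Atp5k (NRF1 letters on the opposite strand, chr5:108434431-108434460, minus strand): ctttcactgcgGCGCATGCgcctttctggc
Ndufaf4 (NRF1 letters on the opposite strand, chr4:24897959-24897988, plus strand): cccagatgtctGCGCATGCgcctgtgcgga
A match is a description of letters and not of binding. Neither NRF1 letters nor the other motifs were found in the windows of Ndufa13 and Cox7a1, which are described further on.

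The members spanned a wide range of levels. Levels between genes are compared in CPM, which are counts scaled to a common library size, per kilobase of the median protein-coding transcript, as the mean of the 6 libraries. Atp5b, which encodes the catalytic beta subunit of ATP synthase, was the highest at 595 CPM per kilobase. Atp5a1, the alpha subunit of the same head, reached 311 CPM per kilobase. The highest member of complex IV was Cox4i1 at 337 CPM per kilobase, that of complex III was Uqcrh at 179, that of complex I was Ndufc2 at 125 and that of complex II was Sdhc at 86.4. The assembly factors were lower as a group, between 6.13 CPM per kilobase for Atp5s and 25.0 for Ndufaf2. Within complexes the spread was large, since Cox6a2 and Cox7a1, forms typical of heart and skeletal muscle, stood at 1.48 and 1.69 CPM per kilobase. Ndufs5, an accessory subunit of complex I, was listed at 0 counts in all 6 libraries and was the only member that was not tested. The table was limited to genes above a minimum FPKM and still lists 42 genes at 0 throughout, so this 0 sets no limit on the level of Ndufs5. Of the 50-base words in its transcripts, 22.9% also occur in another gene. Counts are also uncertain for other members that share sequence with other genes. The share of such words was 68.5% for Atp5l, 43.2% for Uqcrb, 38.8% for Atp5h, 35.8% for Ndufs3, 35.5% for Atp5o and 23.0% for Cox7c. Atp5l, at 38 to 62 counts, and Cox7c, at 53 to 150 counts, were low, whereas Atp5o stood at 171 CPM per kilobase.

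**Figure D1:**
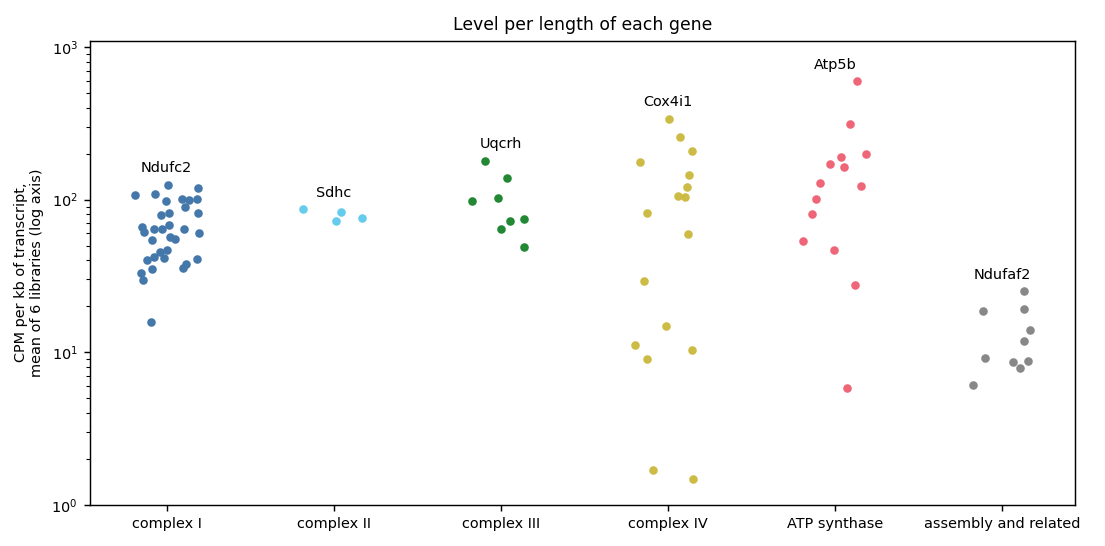
Level per length of each of the 87 members with counts, in CPM per kilobase of transcript as the mean of 6 libraries, on a log axis and grouped by complex. The highest member of each group is named, from Atp5b at 595 down to Ndufaf2 at 25.0, and each point is 1 gene.

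Summed over all 88 genes, the TMM-scaled level overlapped between the groups and was highest in 1 control library. The sum was 6886, 8270 and 6540 CPM in control replicates 1, 2 and 3 and 6650, 6780 and 6938 CPM in the libraries labelled CKO. Control replicate 2 was 1.22 times the mean of the other 5 libraries, which lay within 6540 to 6938 CPM. The same ratio was 1.18 for the sum over all genes tested. That TMM-scaled sum follows from the scaling factor, 0.869 in control replicate 2, and does not describe a typical gene. As a share of the unscaled counts, the members made up 0.718% in control replicate 2, 0.675% to 0.687% in the other control libraries, and 0.677%, 0.709% and 0.729% in the libraries labelled CKO, so that CKO replicate 3 and not control replicate 2 was highest. The group means were 7232 ± 915 CPM in the control and 6790 ± 144 CPM in the libraries labelled CKO (SD, n = 3 each), and the groups overlapped. With TMM scaling the same library was the highest for every complex, whereas by share of unscaled counts it was the highest for complex III and ATP synthase only. For complex I the sum was 2065 CPM there and 1622 to 1737 CPM in the other 5 libraries. For complex II it was 524 CPM against 462 to 488 CPM, and for complex III 840 CPM against 623 to 677 CPM. Complex IV reached 1205 CPM against 963 to 1040 CPM, and ATP synthase 3459 CPM against 2673 to 2868 CPM. The assembly factors and related genes were nearest to each other, at 177 CPM against 157 to 167 CPM.

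**Figure D2:**
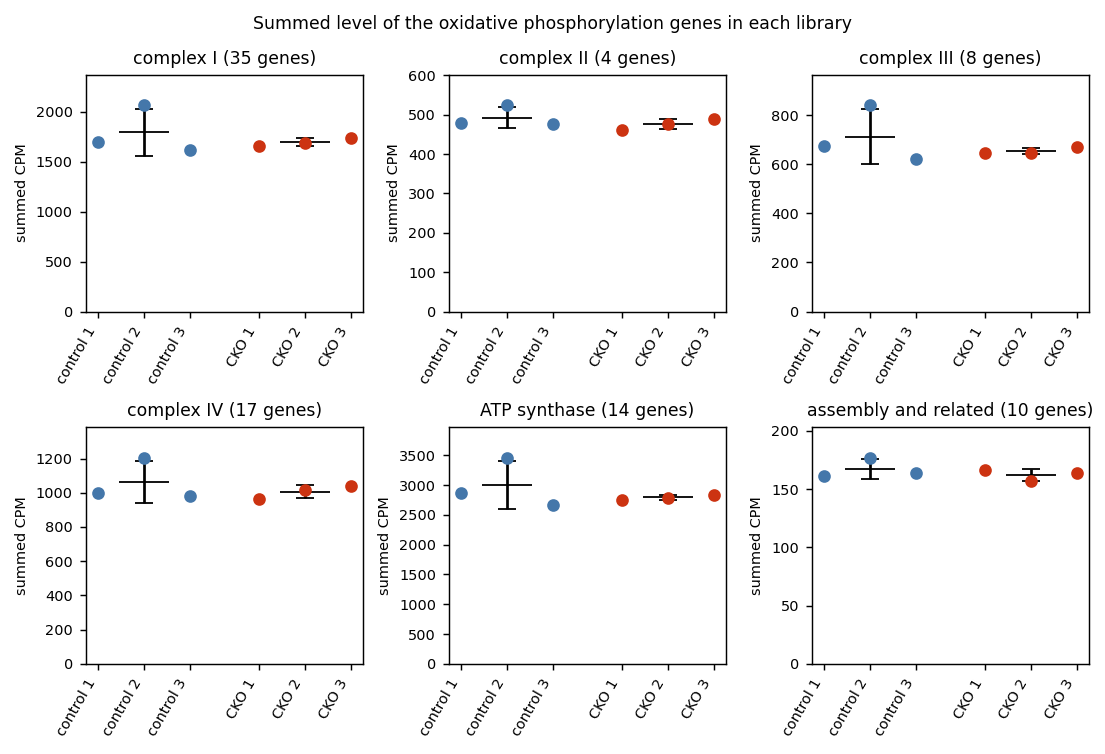
Summed CPM of the genes of each complex in each library, with control libraries in blue and libraries labelled CKO in red, and with bars for the mean ± SD of 3 libraries. With this TMM scaling control replicate 2 is the highest point in all 6 panels, which by share of unscaled counts holds for complex III and ATP synthase only.

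The question of the comparison was whether these genes differ between lenses labelled CKO and control lenses. None of the 87 members tested passed edgeR's quasi-likelihood test at an adjusted p under 0.05, where 0% of the 12879 genes tested passed. At an unadjusted p under 0.05 there were 3 members, or 3.45%, against 3.55% of all genes. All 3 were lower in the libraries labelled CKO, a call that 2.24% of all genes received. DESeq2's Wald test called 0 members at an adjusted p under 0.05 and 2 at an unadjusted p under 0.05, against 0.661% of all genes at the adjusted and 3.94% at the unadjusted threshold. Groups that did not overlap were seen in 6 members, or 6.90%, against 8.36% of all genes. Of these 6, 5 were lower (4.69% of all genes) and 1 was higher (3.67% of all genes). The shares of members called were thus near the background. The differences were small, with 82 of the 87 members within 0.2 of 0 on the log2 scale and a median SE of 0.12.

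The direction was less even than the calls. A log2 fold change below 0 was found in 66 members, or 75.9%, against 49.4% of all genes, with a median of −0.07 over the members against 0.00 over all genes. This rested on control replicate 2, which with TMM scaling was the highest of the 6 libraries in 76 of the 87 members, or 87.4%, against 31.6% of all genes. Without it, 58 members, or 66.7%, were higher in the libraries labelled CKO, against 50.6% of all genes, and the median turned to 0.03. Without control replicate 3 the median was −0.14, with 71 members lower. Scaled by library totals alone, an alternative chosen after seeing the data, 51 members were higher with a median of 0.04. The median of all genes moved to 0.10 under that scaling, so the members stayed below it. Transcript length moves with the same library, because genes of 500 bases stood 0.13 above their mean in control replicate 2 on the log2 scale and between −0.07 and 0.02 in the others. The median transcript length was 709 bases for the members and 2570 bases for all genes tested. With transcript length offsets the median of the members was −0.07. Crystallins had a median log2 fold change of −1.19, or −0.63 without control replicate 2, and were highest in control replicate 2 in 16 of 16 genes. The part of fibre content and of length in the members' levels was not tested.

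**Figure D3:**
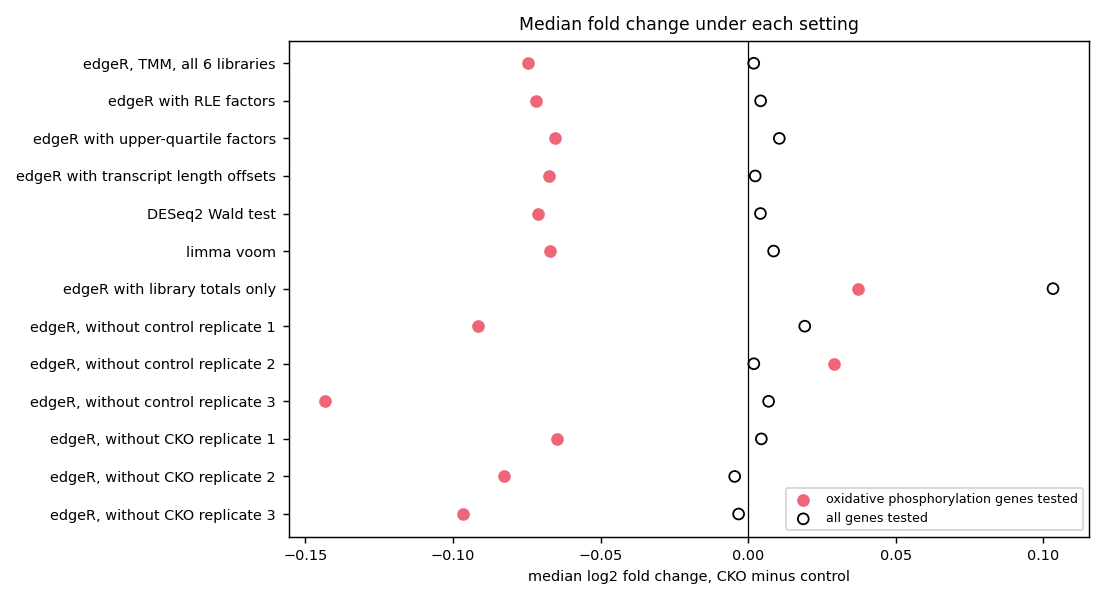
Median log2 fold change (CKO minus control) of the members tested and of all genes tested under each analysis setting. The members' median lies below 0 except with library totals alone and without control replicate 2.

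Complex I, which takes electrons from NADH, had 6 of its 34 tested genes higher and 28 lower. The median log2 fold change was −0.09, and 0.04 without control replicate 2. Its 7 nuclear-encoded core subunits carry the flavin, the iron-sulphur clusters and part of the quinone site. Of these subunits, 6 were lower and 1 higher, whereas without control replicate 2 there were 3 lower and 4 higher. The lowest was Ndufs8 at −0.15. Ndufv1, which holds the NADH site, had 97.3, 103 and 88.6 CPM in the control libraries and 84.7, 87.9 and 92.3 CPM in the libraries labelled CKO, and its groups overlapped. Ndufa6, an accessory subunit, had the highest log2 fold change of the complex at 0.12 ± 0.15 (SE), and at 0.28 without control replicate 2, which was its highest library.

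Ndufa13, an accessory subunit of complex I that is also known as GRIM-19, had the lowest log2 fold change of complex I. It lies at chr8:69894180-69902558 (mm10, minus strand), and Tssk6 on the opposite strand overlaps 375 of its exonic bases. Its level was 53.8, 64.4 and 49.9 CPM in the control libraries and 42.3, 45.1 and 48.4 CPM in the libraries labelled CKO. The groups did not overlap, with control replicate 3 and CKO replicate 3 next to each other. The log2 fold change was −0.31 ± 0.12 (SE, 95% interval −0.58 to −0.03) and did not pass edgeR's test, with an unadjusted p of 0.034 and an adjusted p of 0.9998. Without control replicate 2 it was −0.18. Ndufb11, another accessory subunit, also did not overlap, but its nearest libraries were 55.7 CPM in control replicate 1 and 55.6 CPM in CKO replicate 3. Ndufa12, the only member with every library labelled CKO above every control library, had 24.9, 25.7 and 24.0 CPM against 26.9, 26.0 and 26.5 CPM, and 26.2% of its 50-base words occur in another gene.

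Complex II, which is also the succinate dehydrogenase of the citric acid cycle and has only nuclear subunits, had 1 of its 4 genes higher and 3 lower, with a median of −0.03. The flavoprotein gene Sdha had 232, 253 and 243 CPM in the control libraries against 230, 233 and 244 CPM. Sdhb, the iron-sulphur subunit, had the lowest log2 fold change at −0.16 ± 0.11 (SE), or −0.02 without control replicate 2. Sdhc, a membrane anchor, had the highest at 0.01 ± 0.09 (SE), or −0.0042 without that library. Complex III had 1 of 8 genes higher and 7 lower, with a median of −0.10 and of 0.04 without control replicate 2. Its core gene Uqcrc2 had 189, 228 and 172 CPM in the control libraries and 180, 168 and 176 CPM in the libraries labelled CKO, which gave −0.17 ± 0.11 (SE) as log2 fold change and −0.04 without control replicate 2. Control replicate 3 lay inside the range of the libraries labelled CKO. Uqcrfs1, the Rieske iron-sulphur protein, had 92.7, 114 and 94.5 CPM against 96.5, 93.2 and 105 CPM. Uqcr11, a small subunit, was the 1 gene above 0, at 0.04 ± 0.16 (SE) and 0.22 without control replicate 2.

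ATP synthase had 5 of 14 genes higher and 9 lower, with a median of −0.06 and of 0.04 without control replicate 2. Atp5b had 1176, 1458 and 1024 CPM in the control libraries and 1076, 1044 and 1065 CPM in the libraries labelled CKO. Its 3 libraries labelled CKO lay within the control range, and the log2 fold change was −0.20 ± 0.14 (SE). It was −0.04 without control replicate 2 and −0.31 without control replicate 3. Atp5a1 had 750, 856 and 732 CPM against 743, 755 and 774 CPM. Atp5g1 and Atp5g3 encode the same mature c subunit of the membrane ring. Atp5g1 had the highest log2 fold change of the complex at 0.10 ± 0.19 (SE), and 0.33 without control replicate 2. Per length, Atp5g1 made up 11.8% ± 1.34 of the pair in the control libraries and 12.3% ± 0.69 in the libraries labelled CKO (SD, n = 3 each). Atp5l, a membrane subunit with few counts, had the lowest at −0.28 ± 0.22 (SE), and its groups did not overlap. The 10 assembly factors and related genes lay between −0.16 for Ndufaf8 and 0.05 for Ndufaf2, with 2 higher and 8 lower. Ndufaf8 was at 0.12 without control replicate 2.

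Complex IV, the cytochrome c oxidase, held the largest fold changes among the members, all in genes with few counts. Its 17 genes comprised 6 higher and 11 lower, with a median of −0.09 and of 0.03 without control replicate 2. The common subunit Cox4i1 had 244, 295 and 236 CPM in the control libraries against 225, 248 and 257 CPM. Cox5a, also common to all tissues, had 66.02, 74.9 and 72.3 CPM against 61.6, 59.0 and 67.3 CPM. Cox7c had the highest log2 fold change of all members at 0.42 ± 0.29 (SE), which followed CKO replicate 2 at 7.63 CPM, while the other libraries lay between 3.73 and 5.01 CPM. Without CKO replicate 2 it was 0.11.

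**Figure D4:**
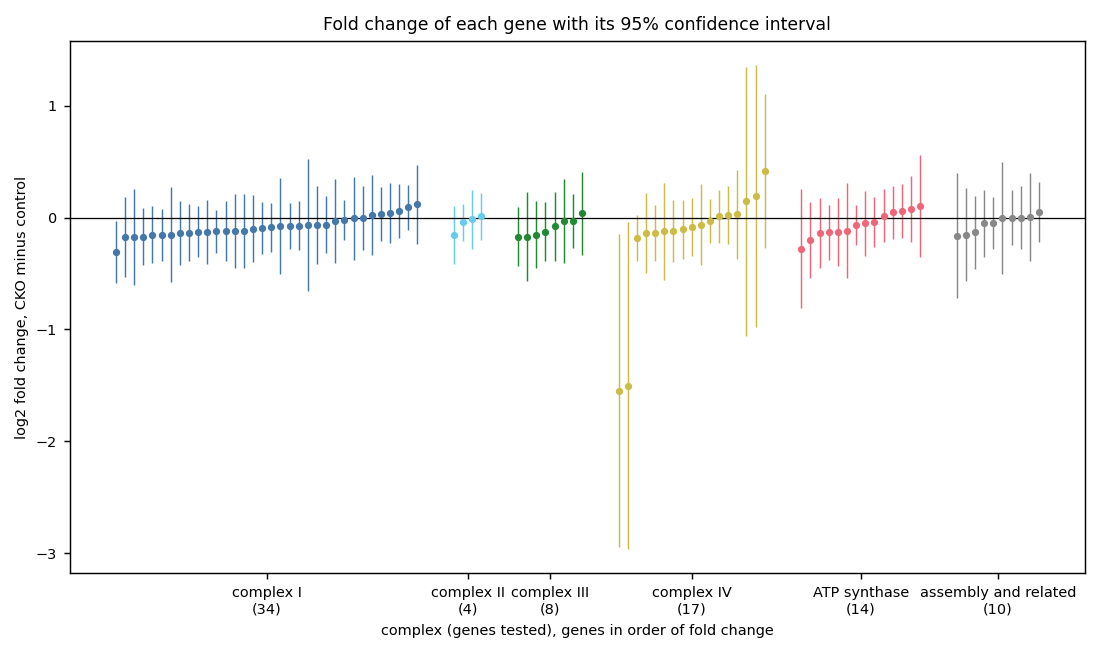
Log2 fold change (CKO minus control) of each of the 87 members tested, with its 95% confidence interval from edgeR, grouped by complex and in order of fold change. The intervals of Ndufa13 in complex I and of Cox6a2 and Cox7a1 in complex IV do not include 0, and none passed after adjustment.

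Cox6a2 and Cox7a1 are the forms of their subunits found in heart and skeletal muscle, whereas Cox6a1 and Cox7a2 are made in most tissues. Counts of Cox6a2 (chr7:128205435-128206387, minus strand) were 21, 32 and 17 in the controls against 5, 18 and 5 where the label was CKO. In CPM these were 1.33, 2.26 and 0.950 against 0.324, 0.915 and 0.260, so that CKO replicate 2 came close to control replicate 3 without overlap. The log2 fold change was −1.55 ± 0.59 (SE), with an unadjusted p of 0.035 and an adjusted p of 0.9998 in edgeR's test. Cox7a1 (chr7:30184144-30186078, plus strand) had 11, 24 and 10 counts against 8, 4 and 6 counts, and 0.697, 1.69 and 0.559 CPM against 0.519, 0.203 and 0.312 CPM. Its log2 fold change was −1.50 ± 0.62 (SE), with an unadjusted p of 0.046 and an adjusted p of 0.9998. Without control replicate 2 the log2 fold changes were −1.14 for Cox6a2 and −0.87 for Cox7a1, and neither had an unadjusted p under 0.05. Without CKO replicate 2 that of Cox6a2 was −2.34. Both genes did not overlap between the groups, and both were highest in control replicate 2. The summed level of the 8 tested skeletal muscle markers of 10 listed ranged from 97.5 to 217 CPM in the control libraries and from 69.1 to 292 CPM in the libraries labelled CKO. That sum was highest in CKO replicate 2, in which Cox7a1 was lowest and Cox6a2 was the highest of its group. Among the control libraries, at 128, 217 and 97.5 CPM, the sum had the same order as both genes. This order was not particular to muscle. The sums of crystallins and of lens fibre, lens epithelium, blood, macrophage, vessel and pericyte markers had it among the controls too. So did the sum of all members. The sums of retina, pigment cell, mesenchyme and surface ectoderm markers did not. The part of muscle tissue in the levels of Cox6a2 and Cox7a1 was not tested. Of the muscle list, Myf5 and Ckm were not analysed here.

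Cox4i2 and Ndufa4l2 are forms that are known to respond to low oxygen and to mark certain vessel-associated cells. Cox4i2 had 6.91, 2.82 and 11.3 CPM in the control libraries and 6.68, 6.51 and 10.9 CPM in the libraries labelled CKO. Ndufa4l2 had 9.82, 4.09 and 15.8 CPM against 9.21, 7.83 and 15.9 CPM. Both were lowest in control replicate 2, where most members were highest, and both were high in replicate 3 of either group. Their log2 fold changes were 0.19 ± 0.49 and 0.14 ± 0.50 (SE), and both turned below 0 without control replicate 2, at −0.17 and −0.21. The 10 retina markers, summed, had 2537, 1572 and 3309 CPM in the control libraries and 2487, 2301 and 3104 CPM in the libraries labelled CKO. Cox4i2 followed the same order over the 6 libraries as this sum, and Ndufa4l2 followed it except that CKO replicate 3 was just above control replicate 3. The retina list is shown, out of several marker lists, because it moved with these genes. Their shared order is therefore no separate result. The retina list holds Rax and Six6, which are transcription factors of retinal progenitors, and Rax had 92.9 to 202 CPM over the libraries. The 7 tested pericyte markers, summed, had 279, 314 and 230 CPM against 227, 304 and 219 CPM, an order that Cox4i2 did not follow. Higd1b of that list was not analysed here. The 9 vessel markers, summed, had 365, 372 and 285 CPM against 259, 325 and 258 CPM, an order that neither gene followed. The part of retinal tissue in the levels of Cox4i2 and Ndufa4l2 was not tested.

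**Figure D5:**
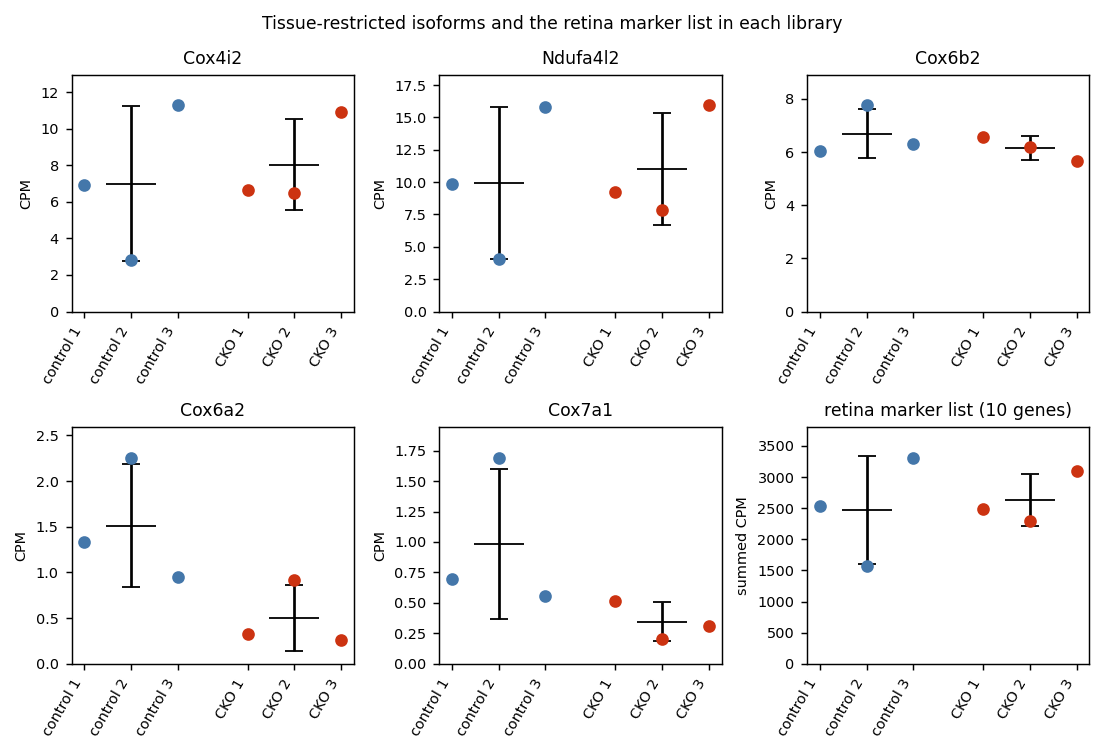
CPM of the 5 tissue-restricted isoforms and the summed CPM of the 10 retina markers in each library, with control libraries in blue, libraries labelled CKO in red and bars for the mean ± SD of 3 libraries. Cox4i2 and Ndufa4l2 are lowest in control replicate 2, as is the retina list, whereas Cox6a2 and Cox7a1 are highest there.

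The restricted forms were minor within each pair. Per length, Cox4i2 made up 2.82% ± 1.85 of Cox4i1 and Cox4i2 together in the control libraries and 3.25% ± 0.82 in the libraries labelled CKO (SD, n = 3 each). Ndufa4l2 made up 5.01% ± 3.23 and 5.31% ± 2.12 of its pair with Ndufa4. Cox6b2, the testis form, made up 5.39% ± 0.42 and 5.44% ± 0.50 of its pair with Cox6b1. Cox6a2 made up 1.41% ± 0.43 and 0.527% ± 0.38 of its pair with Cox6a1, and Cox7a1 made up 2.88% ± 1.38 and 1.05% ± 0.48 of its pair with Cox7a2. In exact two-sided permutation tests of the log2 ratio in the 6 pairs, Cox6a2 and Cox7a1 each reached p = 0.10, the smallest value that 3 against 3 libraries allow, and 0.30 after Benjamini-Hochberg adjustment. The other 4 pairs had an exact p of 0.60 or more.

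Other mitochondrial lists were read beside the members. The mitochondrial ribosome, whose proteins translate the subunits encoded in mitochondrial DNA, had 22 of 77 genes higher and 55 lower with a median of −0.04, and control replicate 2 was highest in 58. The citric acid cycle had 2 of 13 genes higher and 11 lower with a median of −0.06. Electron carriers and coenzyme Q synthesis had 4 of 17 genes higher and 13 lower with a median of −0.08. Without control replicate 2 the medians of these lists were 0.04, 0.00 and 0.05. Assembly factors outside the naming rule had 18 of 41 genes higher and 23 lower with a median of −0.01. Membrane carriers had 4 of 7 genes higher and a median of 0.00. The other nuclear subunits, at 1 higher and 3 lower of 4, included Cyc1, the cytochrome c1 subunit of complex III, with 84.3 to 104 CPM in the control libraries and 84.7 to 97.4 CPM in the libraries labelled CKO. The subunits encoded in mitochondrial DNA were not analysed here. No gene of these lists passed the adjusted threshold of edgeR's test.

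No call was made among the listed factors known to control these genes. The list of mitochondrial biogenesis factors had 5 of 13 genes higher and 8 lower with a median of −0.01, and none had an unadjusted p under 0.05. Nrf1 had 59.8 to 74.6 CPM in the control libraries and 66.5 to 70.2 CPM in the libraries labelled CKO. Gabpa, the DNA-binding subunit of GABP, had 111 to 117 CPM against 112 to 124 CPM. Tfam, which packages mitochondrial DNA and acts as a factor in its transcription, had 66.4 to 74.0 CPM against 66.4 to 73.5 CPM. Ppargc1a, a coactivator of this programme, had 8.10 to 10.5 CPM against 5.71 to 8.90 CPM. Nrf1, Gabpa, Tfam and Ppargc1a each overlapped between the groups.

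Single genes of the lists outside the naming rule are given next, chosen for the smallest unadjusted p. Of the hypoxia response list, with 7 of 14 genes higher and 7 lower, Bnip3, a mitophagy receptor, had 29.9, 32.0 and 32.2 CPM in the control libraries and 43.3, 38.8 and 50.8 CPM in the libraries labelled CKO. The log2 fold change of Bnip3 was 0.50 ± 0.12 (SE) with an adjusted p of 0.638 in edgeR's test. Pdk1, a kinase that limits the entry of pyruvate into the citric acid cycle, had 72.4, 69.7 and 79.3 CPM against 87.4, 93.6 and 124 CPM, with 0.46 ± 0.14 (SE) and an adjusted p of 0.997. Ndrg1 had 82.7, 124 and 94.3 CPM against 65.7, 53.4 and 55.6 CPM, with −0.79 ± 0.16 (SE) and an adjusted p of 0.582. In all 3 genes the groups did not overlap, and their directions differed. They were named for their small unadjusted p, so the lack of overlap is no separate result. Of the 14 genes of the list, 1 was lower and 2 were higher without overlap, against 8.36% of all genes in either direction. At an unadjusted p under 0.05 in edgeR's test, 1 was lower and 3 were higher, against 3.55% of all genes. Of the mitophagy list, with 5 of 13 genes higher and 8 lower, the receptor Optn had 31.9, 52.6 and 22.9 CPM against 13.4, 13.4 and 10.3 CPM, with −1.53 ± 0.31 (SE) and an adjusted p of 0.582. Of these 13 genes, 2 were lower and 2 were higher without overlap, against 8.36% of all genes in either direction. At an unadjusted p under 0.05 in edgeR's test, 1 was lower and 1 was higher, against 3.55% of all genes. Bnip3 is counted in both the hypoxia and the mitophagy list. DESeq2's Wald test gave adjusted p of 5.3e-04 for Optn and 0.0066 for Ndrg1, so that the call for both depended on the test. Ogdh of the citric acid cycle, the coenzyme Q factor Coq8a and the mitochondrial ribosomal gene Mrpl51 had log2 fold changes of −0.18, −0.62 and −0.33 (−0.12, −0.52 and −0.19 without control replicate 2), and the assembly factor Cox18 had 0.45, each with an unadjusted p under 0.05 and none past adjustment.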

How the data were processed

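RNA from pooled lenses was sequenced as stranded poly(A) libraries. Per the labels and the study's methods, the authors trimmed reads with Trim Galore, aligned them to mm10 with TopHat2 2.0.13 and counted them per RefSeq gene with HTSeq 0.6.1, and the deposited table holds these raw counts. The table was limited by the authors to genes above a minimum FPKM, and the counting options for strand and shared reads are not given in the sources used here. Samples were grouped by their labels, with replicate numbers from the sample titles.

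The test was run on genes that reached 10 counts in 3 or more libraries, using edgeR 4.0.16 (quasi-likelihood test, TMM factors, Benjamini-Hochberg adjustment over all genes, threshold 0.05) in R 4.3.3. CPM used TMM-scaled library totals, and a fold change is the libraries labelled CKO minus control. Nothing says that pools were separate litters, so p-values measure the spread between these pools. Positions, lengths and shared words came from GENCODE M21. Other scalings, filters, DESeq2 1.42.0, limma 3.58.1, length offsets and leaving out each library were tried. No p-value was computed for summed levels. The members and gene lists were chosen with earlier results of these data known. Named genes were taken from core subunits, isoform sets, the extremes of each complex, members with an unadjusted p under 0.05, regulators, and at most 3 genes of each other list. Ndufb11 and Ndufa12, outside that rule, were chosen after their values were seen. Some genes that this rule names are not reported here.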

Additional observations from a re-analysis of the deposited data

How the results depend on the processing

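No member passed the adjusted threshold under any of the 16 other settings run. Leaving out 1 library at a time gave 0 to 8 members at an unadjusted p under 0.05, 7 to 26 whose groups did not overlap and 29 to 71 lower. The 26, without control replicate 3, were 29.9% of the members against 27.7% of all genes, and the 7, without CKO replicate 1, were 8.05% against 15.6%. The median log2 fold change of the members then ranged from −0.14 without control replicate 3 to 0.029 without control replicate 2. By group it ranged from −0.16 to 0.037 in complex I, −0.17 to 0.044 in complex III, −0.16 to 0.025 in complex IV, −0.10 to 0.039 in ATP synthase and −0.075 to 0.018 in the assembly factors and related genes, and stayed below 0 in complex II. The difference in mean log2 summed CPM ranged from −0.15 to 0.028. The log2 ratio of Cox4i2 to Cox4i1 ranged from −0.20 to 0.97, of Ndufa4l2 to Ndufa4 from −0.36 to 0.78 and of Cox6b2 to Cox6b1 from −0.064 to 0.073. Single log2 fold changes that changed sign ranged from −0.048 to 0.075 for Sdhc, −0.048 to 0.22 for Uqcr11, −0.17 to 0.72 for Cox4i2, −0.22 to 0.66 for Ndufa4l2, −0.014 to 0.33 for Atp5g1 and −0.30 to 0.12 for Ndufaf8. Of all genes, 0 to 8 passed the adjusted threshold and 268 to 1243 had an unadjusted p under 0.05, with the highest values without control replicates 2 and 3.

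With library totals alone, chosen after seeing the data, 36 members were lower and 11 did not overlap, or 12.6% against 13.2% of all genes. The median was 0.037 over the members, and by group 0.021 in complex I, 0.081 in complex II, 0.013 in complex III, 0.030 in complex IV, 0.054 in ATP synthase and 0.076 in the assembly factors and related genes. The summed difference was 0.023, and 1 gene of all passed the adjusted threshold. With at least 50 counts required, Cox6a2 and Cox7a1 were not tested and 1 member had an unadjusted p under 0.05. DESeq2's Wald test called 85 of all genes, with log2 fold changes of −0.78 for Ndrg1 and −1.53 for Optn. The causes of these shifts were not tested beyond the genes left out by the count minimum. With a replicate block the members' median was −0.07, with 63 lower and 0 called. Deviations of libraries with the same title number correlated at −0.49, 0.09 and 0.44, so no common pairing by these numbers was seen. Such correlations cannot show whether pools were collected together. The column headers also number the libraries labelled CKO differently from the titles. The difference of −0.31 ± 0.12 (SE) in Ndufa13 did not pass adjustment, and what size of difference 3 pools a group could show was not tested.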
